A study of Mus musculus with 4 samples.

Results

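The 78 genes described here carry the symbols of mitochondrial ribosome proteins, Mrpl for the large and Mrps for the small subunit, though not every symbol gives the subunit or the role. They were taken as every gene symbol of the deposited count tables that begins with Mrpl or Mrps followed by a digit, without pseudogenes. The tables list 32227 genes, of which 23812 had at least 10 UMIs (counted RNA molecules) in epithelial cells of the 4 libraries, and all 78 members passed that minimum, with 3341 to 50158 UMIs each. Of the 78 symbols, 49 are Mrpl and 29 are Mrps. The measured cells were epithelial cells of the gastric corpus, the part of the stomach where its acid is made, from wild-type C57BL6/J mice aged 6 to 7 weeks. The untreated group received PBS. The other 3 groups received L635, a compound toxic to acid-secreting parietal cells, as 1 oral dose of 350 mg/kg, and were taken at day 1, at day 3, and at day 3 with AREG (amphiregulin, which activates the EGF receptor). Nothing used here states how many mice went into a library, or how much AREG was given and when. Each group is 1 library without replicates: differences are therefore described with counting intervals, and nothing was tested.

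The mitochondrial ribosome translates the few messenger RNAs that the mitochondrial genome encodes, all for subunits of the respiratory chain and ATP synthase. Its RNAs are made inside the organelle, but every one of its proteins is encoded in the nucleus, translated on cytosolic ribosomes and imported. A large subunit joins amino acids and a small subunit reads the message, and both combine proteins shared with bacterial ribosomes and proteins found only in mitochondria. Parietal cells are among the cells richest in mitochondria, since the proton pump that acidifies the stomach consumes ATP. Mrps18a and Mrps30 sit in the large subunit despite their names, and Mrps36 is known as a subunit of the 2-oxoglutarate dehydrogenase complex.

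Promoter sequence is shown for 4 members whose levels the results turn on: Mrpl20 and Mrpl34, among those with the widest lead of parietal-like over pit-like cells, and Mrpl3 and Mrpl33, which were higher at day 1. Each runs from 120 bases before the annotated start through the first 30 bases from it, in the direction of transcription, from RefSeq (GRCm38.p6, an older build than that of the counts). Capitals mark a match to 1 of 4 motifs searched on both strands: CCGGAAG (a core of ETS and GABP sites), GCGCATG (a core of the NRF1 site), AAGATGG (a core of the YY1 site) and CACGTG (an E-box).
Mrpl20, chr4:155802758-155802907, plus strand: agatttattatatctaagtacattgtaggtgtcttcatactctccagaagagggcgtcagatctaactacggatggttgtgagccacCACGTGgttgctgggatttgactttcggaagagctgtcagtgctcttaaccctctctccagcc
Mrpl34, chr8:71464806-71464955, plus strand: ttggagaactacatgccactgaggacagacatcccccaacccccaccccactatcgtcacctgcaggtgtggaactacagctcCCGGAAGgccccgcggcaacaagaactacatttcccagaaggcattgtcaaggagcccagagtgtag
Mrpl3, chr9:105053148-105053297, plus strand: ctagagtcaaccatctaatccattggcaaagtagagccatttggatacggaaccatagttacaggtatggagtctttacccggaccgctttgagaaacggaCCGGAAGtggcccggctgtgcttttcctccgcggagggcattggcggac
Mrpl33, chr5:31613831-31613980, plus strand: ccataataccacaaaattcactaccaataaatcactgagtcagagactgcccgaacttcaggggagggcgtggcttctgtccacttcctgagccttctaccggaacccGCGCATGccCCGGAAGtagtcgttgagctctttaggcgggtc
In this window the capitals mark an E-box in Mrpl20 and an ETS core in Mrpl34. Mrpl3 and Mrpl33 both held an ETS core close to the start, and Mrpl33 also held the NRF1 core. Repeated elements were not masked, and binding at these matches was not tested. RefSeq windows of 300 bases were at hand for 69 of the 78 members. The ETS core stood in 25 of these, or 36.2%, against 9.12% of all 27025 windows of that length. The YY1 core stood in 13 (18.8% against 6.48%), the NRF1 core in 8 (11.6% against 4.04%) and the E-box in 5 (7.25% against 7.24%). In 30 member windows none of the 4 occurred. Median GC content was 58.3% in member windows and 52.7% in all windows, and the median number of CG pairs was 21 and 7. The ETS core, the NRF1 core and the E-box each hold a CG, and the shares were not corrected for either measure. The Mrpl20 window had 43.3% GC and 8 CG pairs.

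In all, the libraries held 56007532 to 98893436 UMIs, of which 62.4% to 70.3% lay in cells. Epithelial cells numbered 13877 (untreated), 3743 (day 1), 7979 (day 3) and 12912 (AREG), and any pair of libraries shared 0 to 3 cell barcodes. Cells were clustered without the members, and clusters were named from fixed marker genes as parietal-like (acid-secreting), chief-like (making digestive enzymes), pit-like (surface mucus), proliferating-like, endocrine-like and tuft-like. Day 1 differed in makeup, since 57.3% and 10.7% of its epithelial cells lay in 2 clusters led by Sprr1a that stayed unnamed. These 2 held 64.2% and 23.0% of its epithelial UMIs, so day 1 values over all epithelial cells are mostly theirs. Parietal-like cells made up 19.7% of epithelial UMIs before treatment, 7.57% at day 1, 35.4% at day 3 and 33.2% with AREG. Levels below are CPM, UMIs per 1000000 UMIs of the cells named, summed over cells, and intervals are exact 95% intervals that cover counting error only. These levels are not scaled by transcript length, so they are compared between cells and libraries for 1 gene, not between genes, and every level given without a unit is in CPM.

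In all epithelial cells the summed level of the 78 genes differed little between libraries beside its spread over cell classes. It was 5890 CPM in the untreated library (95% interval 5871 to 5909), 6237 at day 1 (6212 to 6262), 7158 at day 3 (7132 to 7184) and 6991 with AREG (6969 to 7014). The untreated library was lowest and day 3 highest, and all 4 intervals were apart. In the 2 unnamed day 1 clusters led by Sprr1a the summed level was 5620 and 7507 CPM. Barcodes with fewer than 50 UMIs, which mostly hold free RNA, gave 5826 to 6225 CPM, so free RNA carried these genes at nearly the level of the epithelium as a whole.

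Parietal-like cells held the highest summed level of the named classes in every library. It was 10282 CPM untreated, 8381 at day 1, 12613 at day 3 and 11722 with AREG. Pit-like cells gave 4450, 4760, 3701 and 4121 in the same order, and no pit-like value reached the lowest parietal-like one. Proliferating-like cells lay between these classes, at 7548, 7730, 7634 and 6675, with only 100 shallow cells at day 1. The smaller unnamed day 1 cluster led by Sprr1a (400 cells, median 12384 UMIs) is not in this class. There 12 of 13 proliferating markers were at least 2-fold above their median over clusters, but the naming rule was not met. Untreated tuft-like cells, the chemosensory cells of the epithelium, held 7708 (127 cells). Endocrine-like cells, which secrete hormones, held 5213 untreated and 5269 with AREG. The untreated class pooled a cluster led by Chga and Chgb at 6141 (301 cells) and one led by Sst and Ghrl at 2306 (100 cells). The latter lay below untreated pit-like cells. Among untreated classes the order was parietal-like, tuft-like, proliferating-like, endocrine-like, pit-like and chief-like, and the intervals of tuft-like cells (7405 to 8021) and proliferating-like cells (7496 to 7599) overlapped.

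**Figure D1:**
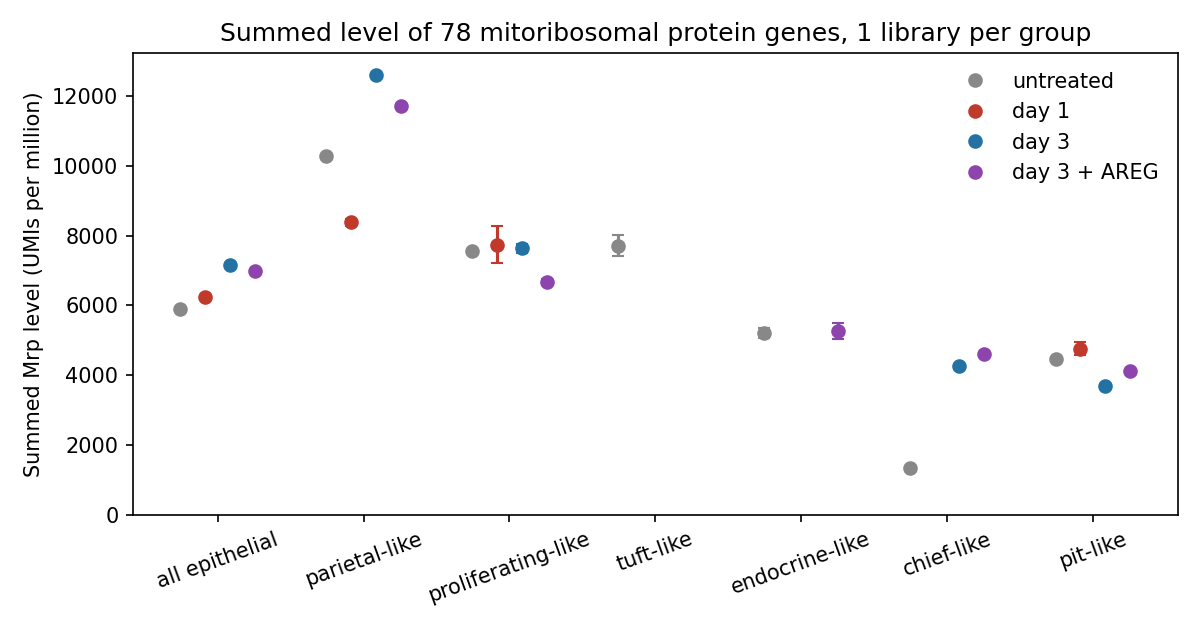
Summed level of the 78 genes (CPM, linear axis from 0) by cell class, with 1 point per library and exact Poisson 95% intervals that cover counting error only. Parietal-like cells lie between 8381 and 12613, above every other named class, and classes under 100 cells in a library are not drawn.

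Untreated chief-like cells were at 1330 CPM, the lowest of any class, against 4253 at day 3 and 4601 with AREG. In the untreated cells the 20 most abundant genes took 85% of all UMIs, against 49.3% and 41.4%, and chief markers alone summed to 825541, 444728 and 357847 CPM. Different clusters held the class: 1069 of 1177 untreated cells lay in a cluster led by Chia1, Pla2g1b and Cblif, and 853 of 947 day 3 cells in one that also led with Gkn3 and Muc6, genes of mucous neck cells. The log2 ratio of day 3 to untreated was 1.68, with 77 members at least 1.5-fold higher, where 75.2% of all genes were, and 0 lower, where 3.55% were. It was 0.28 when the most abundant genes were left out of the scaling, and 0.048 with finer clusters, so the size of this difference follows the scaling and the clustering.

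The parietal lead over pit-like cells was present gene by gene. The summed level was 2.31 times the pit-like one before treatment, 1.76 times at day 1, 3.41 times at day 3 and 2.84 times with AREG. Of the 78 members, 77, 74, 78 and 78 were higher in parietal-like cells in these libraries, and 73 were higher in all 4. The share of all genes above 0 was not counted here. The median log2 ratio was 1.07, 0.85, 1.73 and 1.43 over members, against 0.51, 0.056, 0.086 and 0.11 over all genes. All genes, here and in the other comparisons, were not matched to the members in level. They include scarcer genes, whose ratios are pulled toward 0 by the constant added to each CPM. How much of the gap between members and all genes comes from this was not tested. At least 2-fold higher were 46 members in the untreated library (25.4% of all genes), 24 at day 1 (17.1%), 68 at day 3 (15.8%) and 62 with AREG (13.2%), and none was 2-fold lower in any library, against 4.61%, 12.1%, 9.13% and 7.50% of all genes. Among parietal-like, proliferating-like and pit-like cells, parietal-like cells held the highest level of 63, 43, 73 and 72 members, where the shares over all genes with at least 50 UMIs were 59.5%, 40.3%, 40.3% and 46.0%. No member was highest in pit-like cells in any library, against 9.31%, 25.2%, 27.0% and 23.0% of all genes. With mitochondrially encoded, cytosolic ribosomal protein and 20 other abundant genes left out of the scaling, the log2 ratio of the sums moved from 1.21 to 0.46 in the untreated library and from 1.77 to 1.27 at day 3, with parietal-like cells higher throughout. Pit markers took 417036, 219940, 378426 and 325537 CPM of the pit-like cells over the libraries in turn.

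The size of the lead differed among members. Mrpl20, a protein of the large subunit core shared with bacteria, was among the 10 most parietal-biased members in every library, as were Mrpl41 and Mrpl55. In parietal-like cells Mrpl20 stood at 313 untreated, 329 at day 1, 541 at day 3 and 514 with AREG, and in pit-like cells at 69.7, 124, 63.2 and 67.5 in the same order. Its 4 parietal-like values lay above all 4 pit-like ones, and the log2 ratios were 2.15, 1.40, 3.08 and 2.91. Mrpl34, also of the large subunit and shared with bacteria, had 325 untreated, 165 at day 1, 484 at day 3 and 458 with AREG in parietal-like cells and 81.5, 66.7, 46.4 and 61.3 in pit-like cells. Day 3 showed the widest gap of any member in any library, a log2 ratio of 3.36. Mrps36, the dehydrogenase subunit, had log2 ratios of 1.80, 1.31, 2.73 and 2.59, from 161 untreated, 105 at day 1, 265 at day 3 and 264 with AREG in parietal-like cells. Mrps21, a small subunit protein with a bacterial counterpart, had 1.91, 2.03, 2.21 and 1.72, and Mrpl53, a mitochondria-only large subunit protein, 1.35, 1.45, 2.81 and 2.45. At the other end Mrpl23, which lines the exit of the peptide tunnel, was among the 10 least parietal-biased members in every library, with 142 untreated, 105 at day 1, 132 at day 3 and 129.8 with AREG in parietal-like and 108, 93.7, 77 and 94.9 in pit-like cells. Mrps10, a small subunit protein shared with bacteria, was the only member lower in untreated parietal-like cells, at 33.4 against 35.7 CPM.

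**Figure D2:**
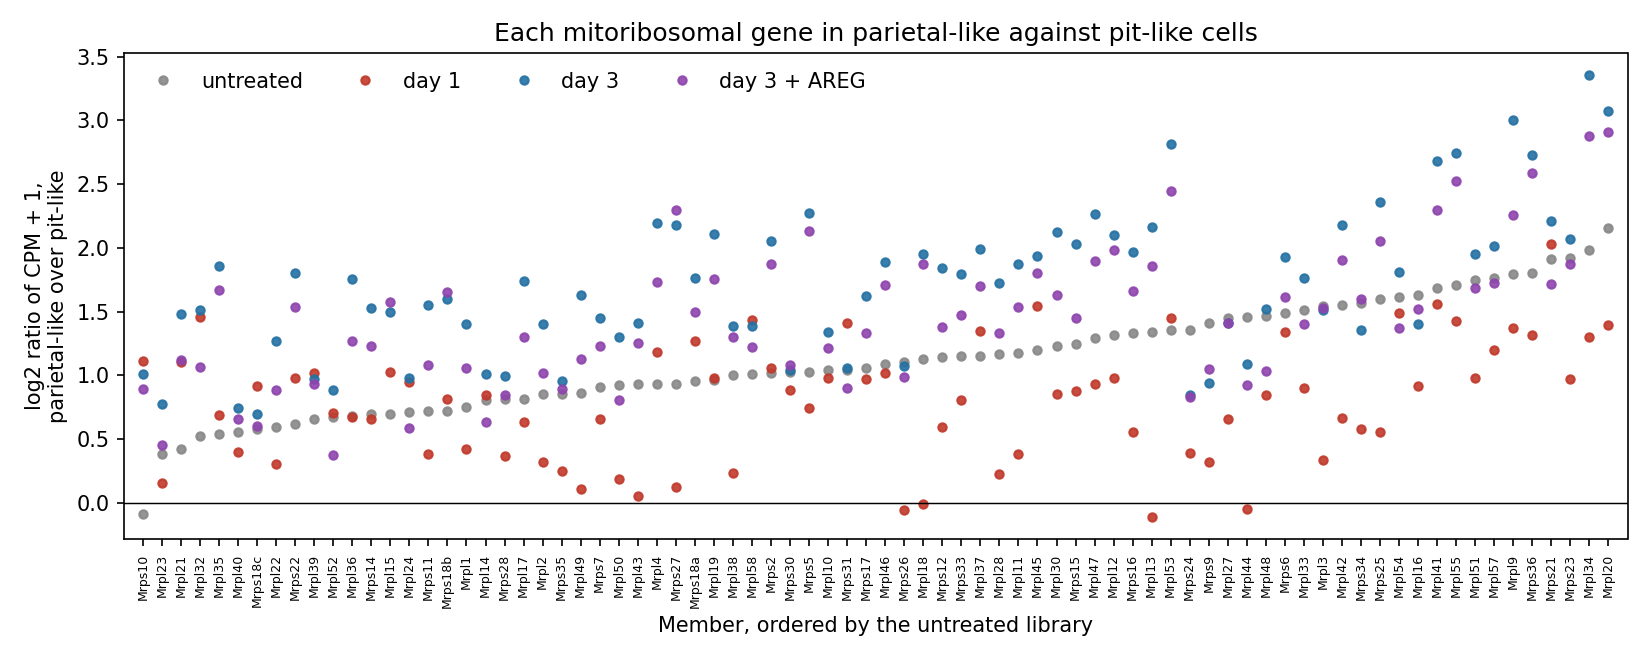
log2 ratio of CPM + 1 in parietal-like over pit-like cells for each of the 78 members, ordered by the untreated library, with 1 point per library. All points lie above 0 except 5, and day 3 reaches 3.36 for Mrpl34.

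Mitochondrially encoded transcripts, the templates of this ribosome, had a steeper parietal lead than the ribosome's own genes. Their log2 ratio of parietal-like to pit-like cells was 2.40 untreated, 1.86 at day 1, 2.78 at day 3 and 2.11 with AREG. Cytosolic ribosomal protein genes gave 0.088, 0.12, 0.78 and 0.28. The members therefore lay between these sets in every library.

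Proliferating-like cells had a different leading gene. Mrps28, a small subunit protein shared with bacteria, held 393 untreated, 708 at day 1, 548 at day 3 and 362 with AREG there, the day 1 value resting on 73 UMIs. Parietal-like cells held 250.3, 309, 311 and 254 and pit-like cells 142, 239.6, 156 and 141 in the same order. It was highest in proliferating-like cells in all 4 libraries, and of the 78 members it had the largest log2 ratio of proliferating-like to pit-like cells in each, at 1.46, 1.56, 1.81 and 1.36. It also had the lowest ratio of parietal-like to proliferating-like cells in each, at -0.65, -1.19, -0.81 and -0.51. Mrps11 and Mrps22, both small subunit proteins, were likewise among the 10 members most biased to proliferating-like over pit-like cells in every library. Mrps11 was at 54.4 untreated, 58.2 at day 1, 45.6 at day 3 and 45.6 with AREG and Mrps22 at 38.3 untreated, 38.8 at day 1, 33.9 at day 3 and 29.5 with AREG in proliferating-like cells, with 6 and 4 UMIs behind the day 1 values. Above pit-like cells were 78 of 78 members untreated, 69 of 76 tested at day 1, and 78 of 78 at day 3 and with AREG, at summed log2 ratios of 0.76, 0.70, 1.04 and 0.70. The share of all genes above 0 was again not counted. The median log2 ratio was 0.73, 0.76, 1.02 and 0.63 over members, against 0.26, 0.054, 0.093 and 0.074 over all genes, again not matched in level. Cytosolic ribosomal protein genes had nearly the same summed ratios as the members, 0.81, 0.70, 1.09 and 0.61. At least 2-fold above pit-like cells were 7 members untreated (10.4% of all genes), 26 at day 1 (12.8%), 41 at day 3 (14.4%) and 6 with AREG (7.03%), and 2-fold lower were 0, 1, 0 and 0 members (1.69%, 18.4%, 9.86% and 2.90%).

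The first time comparison asks what the epithelium looked like 1 day after L635. In all epithelial cells the summed level was 0.082 log2 units above the untreated library (interval 0.075 to 0.090), and the median member differed by 0.057, against 0.16 over all genes. Above 0 were 45 members, where 70.9% of all genes were. At least 1.5-fold higher were 6 of 78 members, where 25.4% of all genes were, and 2 were at least 1.5-fold lower, against 3.99% of all genes. The direction of the sum depended on the scaling. With mitochondrially encoded, cytosolic ribosomal protein and 20 other abundant genes left out it was -0.26, the median member was at -0.29, all genes at 0.066, and 2 members were higher and 13 lower. With each cell weighted equally the sum was -0.12, and without parietal-like cells 0.33. Fewer cells of a type and less RNA per cell cannot be told apart in such sums over all epithelial cells.

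Mrpl3, a large subunit protein shared with bacteria, had the highest day 1 ratio. It stood at 11 CPM untreated, 29.7 at day 1, 28.2 at day 3 and 29.3 with AREG in epithelial cells. The untreated library was low and the other 3 lay close together, and the log2 ratio of day 1 to untreated was 1.35 (exact interval without pseudocount 1.29 to 1.56). In parietal-like cells Mrpl3 was at 25.1 untreated, 32.1 at day 1, 48.6 at day 3 and 53.1 with AREG, and in pit-like cells at 7.95, 25.2, 16.4 and 17.8 in that order, again lowest in the untreated library. Mrps30, a mitochondria-only protein of the large subunit, was at 15.2 untreated, 31.5 at day 1, 30.5 at day 3 and 31.4 with AREG and had the same shape, with a day 1 log2 ratio of 1.01 (0.93 to 1.18). Parietal-like cells held 26.5 untreated, 40.6 at day 1, 45.2 at day 3 and 48.7 with AREG of it and pit-like cells 12.5, 21.6, 21.4 and 22.6, so the untreated library was again lowest in both. In the 2 unnamed day 1 clusters led by Sprr1a, Mrpl3 was at 26.5 and 36.9 and Mrps30 at 29.5 and 33.8 CPM. How UMIs were split is uncertain for the 8 members that share exon sequence on the same strand with another gene, namely Mrpl3 (with Gm38077), Mrpl33 (Gm43809), Mrpl51 (Mir3098), Mrpl53 (Gm42688), Mrps6 (Gm49711 and Slc5a3), Mrps18c (Gm43511), Mrps24 (Urgcp) and Mrps34 (Nme3). Strand handling is not given, so the 28 members with an exon overlap on the other strand may be affected too. Among these are Mrps30, Mrps26 and Mrps18b.

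The other 4 members at least 1.5-fold higher at day 1 were highest at day 1 itself. Mrps26, a mitochondria-only small subunit protein, was at 34.5 untreated, 61.5 at day 1, 45.3 at day 3 and 46.7 with AREG. Mrps18b, a small subunit protein of the Mrps18 family, was at 39.9 untreated, 68.7 at day 1, 50.1 at day 3 and 46.5 with AREG. Mrpl33, a large subunit protein shared with bacteria, was at 118 untreated, 209 at day 1, 157 at day 3 and 157 with AREG. Their day 1 values lay above the other 3 libraries, with log2 ratios to untreated of 0.81, 0.77 and 0.81. Mrpl52, found only in mitochondrial large subunits, was at 160.0 untreated, 258 at day 1, 197 at day 3 and 225 with AREG and had a log2 ratio of 0.69. The larger and the smaller unnamed day 1 cluster led by Sprr1a held Mrps26 at 52.8 and 83.7 and Mrps18b at 51.9 and 102. Mrpl33 was at 183 and 277 there, and Mrpl52 at 230 and 349. Mrps18b was also higher within parietal-like cells, at 58.7 untreated, 121 at day 1, 88 at day 3 and 83.6 with AREG, a day 1 log2 ratio of 1.03 (0.86 to 1.23). The 2 other members of its family differed less in epithelial cells: Mrps18a, of the large subunit, was at 70.1 untreated, 72.8 at day 1, 84.5 at day 3 and 76 with AREG, and Mrps18c, the counterpart of the bacterial protein, at 100.5 untreated, 125 at day 1, 118 at day 3 and 109.7 with AREG.

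Mrpl42, a mitochondria-only large subunit protein, was the member with the lowest day 1 ratio. Its level was 264 CPM untreated, 139 at day 1, 241 at day 3 and 235 with AREG. Day 1 was low and the other 3 libraries lay close together, at a log2 ratio of -0.92 (-0.97 to -0.88). Within parietal-like cells the dip was deeper, from 468 to 180.0 CPM, a log2 ratio of -1.37 (-1.51 to -1.25), and day 3 stood at 446. Mrpl21, shared with bacteria, was at 107 untreated, 65.2 at day 1, 86.8 at day 3 and 94.8 with AREG in epithelial cells and was lower in the 3 libraries after L635 than in the untreated one, with a day 1 log2 ratio of -0.70. Mrpl39, which resembles a threonyl-tRNA synthetase, was at 31.4 untreated, 22.3 at day 1, 31.5 at day 3 and 32.6 with AREG and Mrpl49, mitochondria-only, at 34.9 untreated, 25.1 at day 1, 29.1 at day 3 and 34.1 with AREG. For Mrpl30, shared with bacteria, the values were 160.2 untreated, 117 at day 1, 183 at day 3 and 194 with AREG, and for Mrps15, also shared, 54.2 untreated, 41 at day 1, 53.4 at day 3 and 58.2 with AREG. In these 4, day 1 was lowest, and their log2 ratios to untreated, -0.48, -0.46, -0.45 and -0.39, did not reach 1.5-fold.

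**Figure D3:**
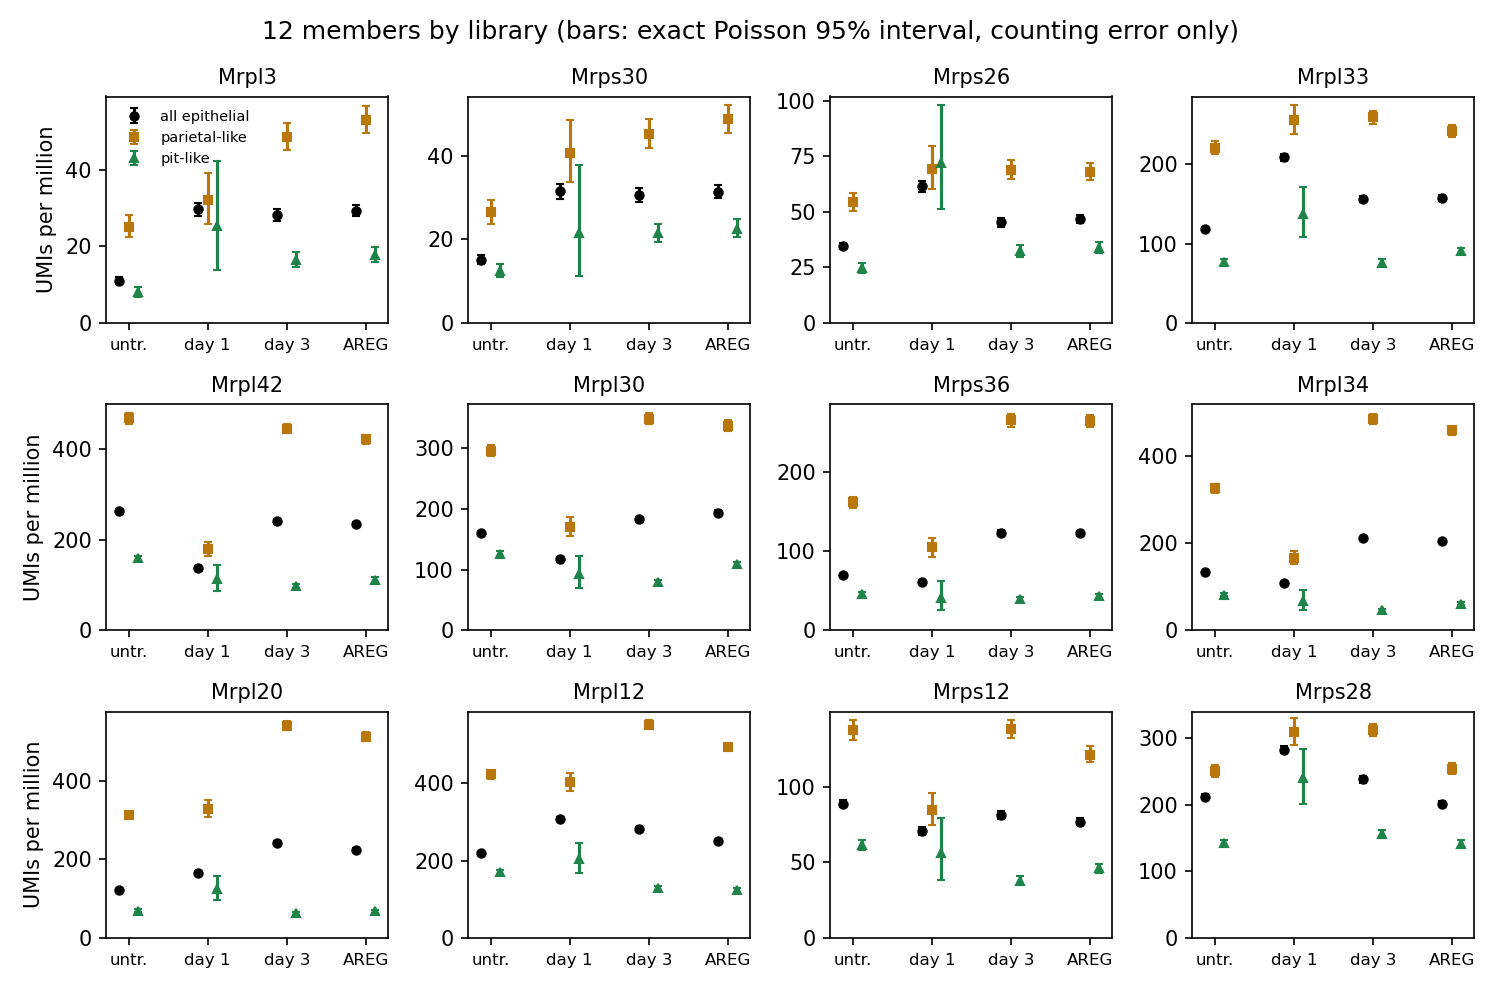
Levels of 12 members (CPM, linear axes from 0) by library in all epithelial, parietal-like and pit-like cells, with exact Poisson 95% intervals. Mrpl3 and Mrps30 are lowest in the untreated library, Mrpl42 and Mrpl34 dip at day 1 in parietal-like cells, and parietal-like cells lie above pit-like cells in all panels except Mrps26 at day 1.

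Within parietal-like cells the members as a group were lower at day 1 and higher at day 3. The summed level was -0.29 log2 units from untreated to day 1 (-0.31 to -0.28) and 0.59 from day 1 to day 3 (0.57 to 0.61). At day 1, 15 of 78 members were at least 1.5-fold lower than untreated, against 9.56% of all genes, 2 (Mrps18b and Mrps30) were higher, against 30.1%, and 22 were above 0, against 66.9%. From day 1 to day 3, 40 members were at least 1.5-fold higher, against 15.0% of all genes, none was lower, against 20.3%, and 73 were above 0, against 46.0%. The median member differed by 0.61 where the median of all genes was -0.061. Over the 4 libraries, 53 of 78 members had their lowest parietal-like level at day 1 and 58 their highest at day 3. This order was not counted over all genes, so no share stands beside it. With the other scaling, which left out mitochondrially encoded, cytosolic ribosomal protein and the most abundant genes, the day 1 sum was -0.37. There 41 members were at least 1.5-fold higher at day 3 than at day 1, against 16.7% of all genes.

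Several other measures differed along with these levels. Parietal-like cells numbered 281 at day 1, and 213 of them formed 1 cluster led by Obp2a, Sprr1a and Hamp2, while untreated cells lay mostly in a cluster led by Hamp2 and Apoa1 (2074 of 4094) and day 3 cells in one led by Atp4b and Tnni3 (1119 of 1871). The 9 parietal markers, all above 0, summed to 30536, 17998, 29739 and 29669 CPM over the libraries in turn. Of 6 pit markers 5 were above 0 in parietal-like cells, and their sums were 39390, 24908, 15086 and 15275. Chief markers, 8 or 9 of 9 above 0, summed to 31345, 4637, 32866 and 30320. Median UMIs per parietal-like cell were 1903, 5800, 4506 and 3825. The part of these in the member levels was not tested. Against untreated, the day 3 sum was 0.29 log2 units higher over the class, with 19 members at least 1.5-fold higher (16.9% of all genes) and 0 lower (5.47%), but within single clusters it was -0.033, 0.42 and 0.25 in the 3 that held at least 100 cells of both libraries.

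The highest ratios of day 3 to day 1 in parietal-like cells began with Mrpl34, a large subunit protein. It was at 325, 165, 484 and 458 CPM over the 4 libraries, lowest at day 1, and its log2 ratio of day 3 to day 1 was 1.54 (1.42 to 1.69). Mrpl18, a large subunit protein shared with bacteria, was at 146, 82.3, 221 and 219.9, at a log2 ratio of 1.41. Mrps36 reached 1.33, Mrpl42 1.30 and Mrpl55 1.22. Mrpl36, a large subunit protein with a bacterial counterpart, was at 143 untreated, 69.3 at day 1, 152 at day 3 and 141 with AREG, again with day 1 lowest. At the other end 5 members (Mrps18b, Mrps6, Mrpl14, Mrpl52 and Mrps26) were not above 0. Mrps18b was at -0.46 (-0.63 to -0.29), and Mrps6, shared with bacteria, was at -0.19 with an interval that included 0.

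Taking all epithelial cells, the sum at day 3 was 0.20 log2 units above day 1 (0.19 to 0.21). Above 0 were 57 members, against 58.2% of all genes, 8 were at least 1.5-fold higher, against 8.87%, and 0 were lower, against 8.21%. The 6 highest were Mrps36 (69.5 untreated, 61.6 at day 1, 123 at day 3 and 123 with AREG), Mrpl34 (134, 108, 210.4 and 204 in the same order), Mrps21 (188, 144, 269.8 and 256), Mrpl55 (65.6, 52, 96.1 and 81.6), Mrpl42 and Mrpl30. In all 6 day 1 was the lowest library, and their log2 ratios ran from 0.64 to 0.99. The 6 lowest were Mrpl50 (40.8 untreated, 57.5 at day 1, 41.6 at day 3 and 44.2 with AREG), Mrps6 (33.2, 47.8, 34.6 and 34.4), Mrps18b, Mrps26, Mrpl33 and Mrpl17 (103, 144, 109 and 101), in which day 1 was the highest library and the ratios ran from -0.46 to -0.40. This comparison turned with the cell makeup: without parietal-like cells the sum was -0.54, with 0 members at least 1.5-fold higher and 30 lower, and with each cell weighted equally it was -0.024. The shares of all genes without parietal-like cells were not counted, so none stands beside these 0 and 30. Against untreated, day 3 was 0.28 higher, with 10 members at least 1.5-fold higher (26.5% of all genes) and 0 lower (2.26%) and 65 above 0 (78.8%), and -0.041 under the other scaling and -0.21 without parietal-like cells.

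Over the pit-like class the sum was lower at day 3. It was -0.36 log2 units from day 1 (-0.42 to -0.31) and -0.27 from untreated (-0.28 to -0.25), with 17 members at least 1.5-fold lower than untreated, against 2.71% of all genes, and 4 higher, against 48.0%. The largest cluster differed between libraries: 2237 of 4349 untreated ones lay in a cluster led by Lypd8l and Gkn2, 1776 of 4172 day 3 ones in a cluster led by Duox2, and 180 of 455 day 1 ones in a cluster led by Slc5a5. Within the 6 pit-like clusters that held at least 100 cells of both libraries, the log2 ratio of day 3 to untreated was 0.15 in the Duox2 cluster, where the sum was 2915 and 3224 CPM, and -0.048, -0.11, -0.16, -0.16 and -0.25 in the others. In the Slc5a5 cluster, the only one with at least 100 day 1 cells, day 3 against day 1 was -0.087 with an interval that included 0, and day 1 against untreated -0.025. From day 1 to day 3, 1 member was higher (22.2% of all genes) and 21 lower (31.0%), and from untreated to day 1, 15 were higher (62.3%) and 10 lower (11.3%). Under the other scaling 4 were higher and 33 lower from untreated to day 1 (46.7% and 18.5% of all genes). From day 1 to day 3, 7 were higher and 15 lower (26.5% and 25.0%). From untreated to day 3, 1 was higher and 38 lower (43.1% and 7.65%). The day 1 pit-like cells were 455 shallow cells with a median of 753 UMIs, and with at least 1000 UMIs per cell the day 1 against untreated sum turned from 0.10 to -0.036, and to -0.41 under the other scaling. The highest ratios of day 1 to untreated were those of Mrpl3 (1.55) and Mrps26 (1.51), and the lowest those of Mrpl21 (-1.37) and Mrps10 (-1.09). From day 1 to day 3 Mrps21 (0.61) and Mrps10 (0.57) were highest and Mrpl13 (-1.26) and Mrps18b (-1.24) lowest. Of the members, Mrpl9, a large subunit protein shared with bacteria, was at 20.2 untreated, 25.2 at day 1, 13.4 at day 3 and 22.5 with AREG and Mrps27, a mitochondria-only protein of the pentatricopeptide family, at 16.9 untreated, 23.4 at day 1, 11.8 at day 3 and 11.4 with AREG. Mrpl21 was at 99.7 untreated, 37.8 at day 1, 51 at day 3 and 65 with AREG and Mrpl36 at 88.9, 43.2, 44.2 and 58.1, in both cases highest in untreated cells. Mrpl3 and Mrps30 were the opposite, lowest in untreated pit-like cells.

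Proliferating-like cells showed summed log2 ratios of 0.035 (-0.068 to 0.14) for day 1 against untreated and 0.016 (-0.012 to 0.044) for day 3 against untreated, both with intervals that included 0. At least 1.5-fold higher and lower were 17 and 13 members at day 1 (41.1% and 36.3% of all genes), 11 and 12 from day 1 to day 3 (28.9% and 26.2%), and 3 and 3 from untreated to day 3 (43.9% and 5.64%). Under the other scaling the sums turned to -0.27 for day 1 and -0.20 for day 3 against untreated. There 5 members were higher and 28 lower at day 1 (34.9% and 40.3% of all genes). At day 3, 2 were higher and 8 lower (36.9% and 10.9%). With finer clusters day 3 against untreated was 0.34. The highest day 1 ratios were again those of Mrpl3 (1.96) and Mrps30 (1.33), on 4 and 5 day 1 UMIs, and from day 1 to day 3 Mrps9 (-1.03) and Mrps18b (-1.02) were lowest. The day 1 value rests on 797 member UMIs in 100 cells, without the unnamed day 1 cluster that also held proliferating markers. Mrpl39 had 0 UMIs there, with an upper limit of 35.8 CPM by the exact interval, against 45.7 in untreated proliferating-like cells, and Mrpl50 had 1. These members and Mrpl16 were the 3 whose pattern over 18 combinations of class and library departed most from that of the other members. Mrpl16, shared with bacteria, was lowest relative to the others in untreated tuft-like cells, which held 2433 member UMIs in 127 cells.

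**Figure D4:**
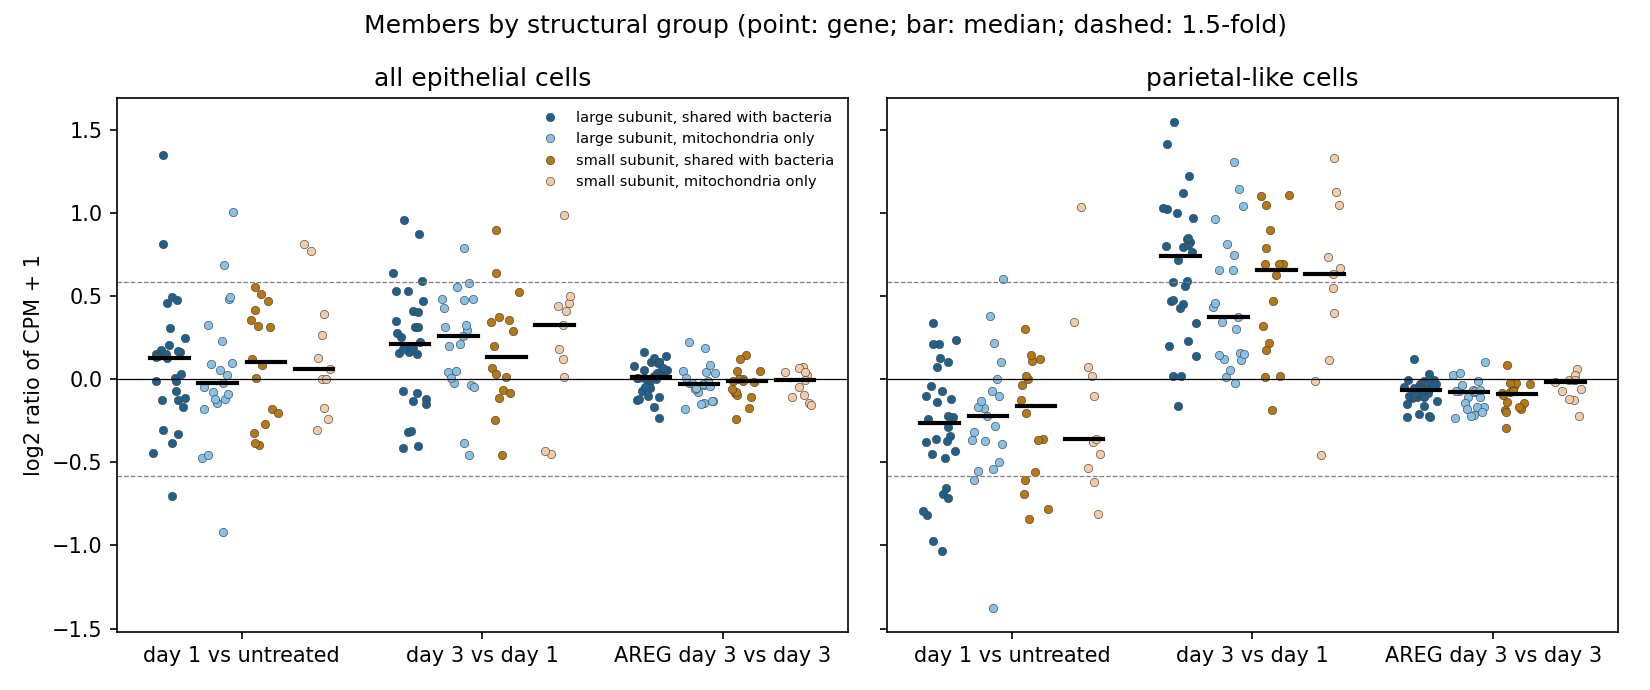
log2 ratio of CPM + 1 for each member in 3 comparisons, in all epithelial cells (left) and parietal-like cells (right), coloured by subunit and by whether bacteria share the protein, with bars at the medians. Of the parietal-like points 22 of 78 lie above 0 for day 1 against untreated and 73 for day 3 against day 1, and for AREG against day 3 they lie between -0.29 and 0.12.

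The structural groups followed 1 order of libraries in parietal-like cells. In parietal-like cells the sum of the 30 large subunit proteins shared with bacteria was 4139 untreated, 3356 at day 1, 5308 at day 3 and 4981 with AREG, and that of the 21 mitochondria-only ones 2918, 2342, 3335 and 3062 in the same order. The 16 small subunit proteins shared with bacteria gave 2167, 1793, 2602 and 2357 and the 11 mitochondria-only symbols 1057, 889.6, 1368 and 1321, a sum that includes Mrps36, placed there by its symbol. Each group was lowest at day 1 and highest at day 3. In all epithelial cells their day 1 against untreated sums were 0.11, 0.015, 0.087 and 0.14.

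Members with a defined role in translation showed mixed shapes in epithelial cells. Mrpl12, Mrpl10 and Mrpl11 form the stalk that recruits translation factors. Mrpl12 was at 219 untreated, 308 at day 1, 281 at day 3 and 249.6 with AREG, highest at day 1, while Mrpl10 was at 45.5 untreated, 51.4 at day 1, 61.4 at day 3 and 58.3 with AREG and Mrpl11 at 39.2 untreated, 44.1 at day 1, 51.7 at day 3 and 53.5 with AREG, both highest after day 1. In parietal-like cells all 3 were lowest at day 1, Mrpl12 at 424, 403, 551 and 493. In the larger unnamed day 1 cluster led by Sprr1a Mrpl12 was at 257, below day 3 over all epithelial cells, and in the smaller one at 452. Mrps12, at the decoding centre, was at 88.5 untreated, 70.5 at day 1, 81.2 at day 3 and 76.7 with AREG in epithelial cells and 137, 84.7, 138 and 121 in parietal-like cells, lowest at day 1 in both. Mrpl58, which also releases stalled ribosomes, was at 79.6 untreated, 70.3 at day 1, 87.5 at day 3 and 87.9 with AREG, and Mrpl44, which resembles an RNase, at 20.1 untreated, 25.3 at day 1, 26.2 at day 3 and 25.7 with AREG. Mrps27 was at 22 untreated, 22 at day 1, 29.6 at day 3 and 30.2 with AREG in epithelial cells and 33.1, 25.6, 57.2 and 59.8 in parietal-like cells, where it was lowest at day 1.

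The last comparison sets AREG at day 3 beside day 3 without it. In all epithelial cells none of the 78 members was 1.5-fold higher or lower with AREG than without it, where 0.622% and 1.24% of all genes were, and 36 were above 0, where 44.2% of all genes were. The summed log2 ratio was -0.034 (-0.041 to -0.027), and members ranged from -0.24 to 0.22. The 6 highest were Mrpl49, Mrpl52, Mrpl24, Mrps11, Mrpl23 and Mrpl21, from 0.12 to 0.22, and the 6 lowest Mrps28, Mrpl55, Mrpl41, Mrps24, Mrpl12 and Mrps34, from -0.24 to -0.16. Mrps28 was at 238 CPM at day 3 and 201 with AREG, and Mrpl49 at 29.1 and 34.1. Without parietal-like cells the sum was 0.16. By class the sums were -0.11 in parietal-like (-0.11 to -0.10), -0.19 in proliferating-like (-0.22 to -0.16), 0.16 in pit-like (0.14 to 0.17) and 0.11 in chief-like cells (0.091 to 0.14), the last turning to -0.035 without the 1% of cells with the most UMIs. In parietal-like cells 8 of 78 members were above 0, where 47.9% of all genes were, and in pit-like cells 64 were, where 46.9% were. In the other scaling these counts were 23 and 64, and the shares of all genes above 0 were not counted there. The largest pit-like cluster differed between these libraries, since 1776 of 4172 day 3 cells lay in the Duox2 cluster and 2517 of 5907 AREG cells in the Slc5a5 cluster. Within the 7 pit-like clusters with at least 100 cells of both libraries the summed log2 ratio ran from -0.064 to 0.020, and it was 0.046 over the class with finer clusters. Chief-like cells had 64 members above 0, where 59.1% of all genes were. Past 1.5-fold were 0 members in either direction in parietal-like cells (0.813% of all genes higher, 1.55% lower) and in chief-like cells (4.83% and 5.85%), 0 higher and 5 lower in proliferating-like cells (6.99% and 9.17%), and 1 higher and 0 lower in pit-like cells (3.29% and 5.51%). Mrps28 was the lowest member with AREG in parietal-like cells (-0.29) and in chief-like cells (-0.38), and Mrps30 in proliferating-like cells, at 41.1 against 22.7 CPM on 63 and 93 UMIs. Mrpl9 in pit-like cells, at 13.4 against 22.5, was the 1 member there past 1.5-fold. The other extremes with AREG were Mrpl3 (0.12) and Mrps30 (0.11) at the top and Mrpl41 (-0.23) at the bottom in parietal-like cells. In proliferating-like cells they were Mrpl49 (0.31), Mrpl35 (0.30) and Mrpl53 (-0.68), and in pit-like cells Mrps15 (0.56), Mrps34 (-0.30) and Mrpl16 (-0.21). Chief-like cells had Mrpl24 (0.51) and Mrpl4 (0.51) highest and Mrps24 (-0.12) next to lowest.

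Other genes of mitochondrial translation were read from fixed lists. Mitochondrially encoded transcripts summed to 56631 untreated, 29773 at day 1, 56168 at day 3 and 70556 with AREG in epithelial cells, and cytosolic ribosomal protein genes to 87186 untreated, 146990 at day 1, 103489 at day 3 and 123081 with AREG. The first were lowest and the second highest at day 1, with log2 ratios to untreated of -0.93 and 0.75 beside 0.082 for the members. Of 13 mitochondrially encoded genes 8 were at least 1.5-fold lower at day 1, against 3.99% of all genes, and of 95 cytosolic genes 61 were higher, against 25.4%, and 0 lower. The classes did not share this order of libraries. Mitochondrially encoded genes summed to 146901, 137021, 113926 and 131859 CPM in parietal-like and 27749, 37631, 16544 and 30539 in pit-like cells, lowest at day 3 in both. Cytosolic ribosomal protein genes summed to 86202, 107300, 128807 and 128834 and 81104, 98546, 75206 and 105934 CPM there, higher at day 3 and with AREG than at day 1 in parietal-like cells and highest with AREG in pit-like cells. The lowest of the first were mt-Co3 (cytochrome oxidase), at 19678 untreated, 8559 at day 1, 14849 at day 3 and 18188 with AREG, and mt-Nd2 (complex I), and the highest were mt-Nd4l and mt-Atp8. Among the second Rpl37a led the ribosomal proteins, at 1460 untreated, 4569 at day 1, 2469 at day 3 and 2532 with AREG. The symbol pattern of that list also took in Rps6ka kinases, which are not ribosomal proteins, and these gave its highest and lowest entries, Rps6ka4 (3.86, 17, 4.83 and 5.92) and Rps6ka2, with Rpl3l next lowest, at 0.178, 0.0517, 0.190 and 0.116.

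Mitochondrial translation factors summed to 465 untreated, 515 at day 1, 800.1 at day 3 and 755 with AREG, and the largest step was from day 1 to day 3, a log2 ratio of 0.63, with 6 of 19 at least 1.5-fold higher, against 8.87% of all genes, and 0 lower, against 8.21%. Parietal-like cells held 875, 725, 1433 and 1322 of them, lowest at day 1 and highest at day 3 like the members. Tufm, the elongation factor that brings aminoacyl-tRNA to the ribosome, was at 207 untreated, 96.6 at day 1, 307 at day 3 and 292 with AREG in parietal-like cells. Taco1, a translational activator of a cytochrome oxidase subunit, was at 23.9 untreated, 21.1 at day 1, 102 at day 3 and 49.7 with AREG in epithelial cells and 53.8, 44.1, 176 and 91.9 in parietal-like cells, and was the 1 factor at least 1.5-fold lower with AREG. Guf1 (3.54, 8.27, 9.92 and 9.94), a translation GTPase, and Pdf (5.48, 10.9, 11.8 and 11.9), which deformylates new peptides, had the highest day 1 ratios, and Mtrfr and Mrrf, which release and recycle ribosomes, the lowest. Mitoribosomal proteins of other symbols summed to 377 untreated, 397 at day 1, 438 at day 3 and 441 with AREG. Among them Ptcd3, a small subunit protein, was at 53.6 untreated, 26.6 at day 1, 99.98 at day 3 and 101 with AREG in parietal-like cells, lowest at day 1, while Chchd1, also of the small subunit, was at 165 untreated, 217 at day 1, 213 at day 3 and 204 with AREG, lowest in untreated cells.

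Assembly and rRNA modification factors were higher at day 1 in epithelial cells, at 314 untreated, 438 at day 1, 397 at day 3 and 403 with AREG, with 10 of 27 at least 1.5-fold higher and 1 lower. Rcc1l (6.49 untreated, 18.8 at day 1, 14.4 at day 3 and 12.7 with AREG) and Gtpbp10 (6.64, 15, 14.1 and 12.7), both needed for large subunit assembly, led, and Ngrn (22, 14.3, 24.8 and 23.8) and Mtg2 (14, 9.51, 16.6 and 15.3) were lowest. Mitochondrial aminoacyl-tRNA synthetases summed to 359 untreated, 479 at day 1, 549 at day 3 and 516 with AREG, with 7 of 22 higher and 1 lower at day 1. Iars2, which charges isoleucine, was at 21.9 untreated, 66.2 at day 1, 48.9 at day 3 and 52 with AREG and Yars2, for tyrosine, at 7.12, 15.9, 21.4 and 19.5, while Gatb, part of the glutaminyl amidotransferase, was at 12.3, 5.12, 10.8 and 11.2 and Vars2, for valine, at 55.5, 42.6, 41.5 and 43.2. Genes of mitochondrial DNA maintenance and transcription summed to 342 untreated, 483 at day 1, 409 at day 3 and 435 with AREG, with Tfam and Polg highest and Tefm and Dguok lowest at day 1. Tfam, which packages mitochondrial DNA, was at 21 untreated, 35 at day 1, 30.1 at day 3 and 31.3 with AREG. Regulators of mitochondrial biogenesis summed to 109.7 untreated, 238 at day 1, 231 at day 3 and 227 with AREG, with 7 of 10 at least 1.5-fold higher at day 1 and 0 lower. Pprc1 (3.55 untreated, 13 at day 1, 10.1 at day 3 and 10.5 with AREG) and Myc (15.2, 40.1, 21.6 and 19.98) led, Gabpb1 and Ppargc1a were lowest, and Ppargc1a, a coactivator of respiratory genes, was nearly level at 6.47, 6.36, 10.5 and 9.33. The shares of all genes in that comparison were 25.4% at least 1.5-fold higher and 3.99% lower.

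**Figure D5:**
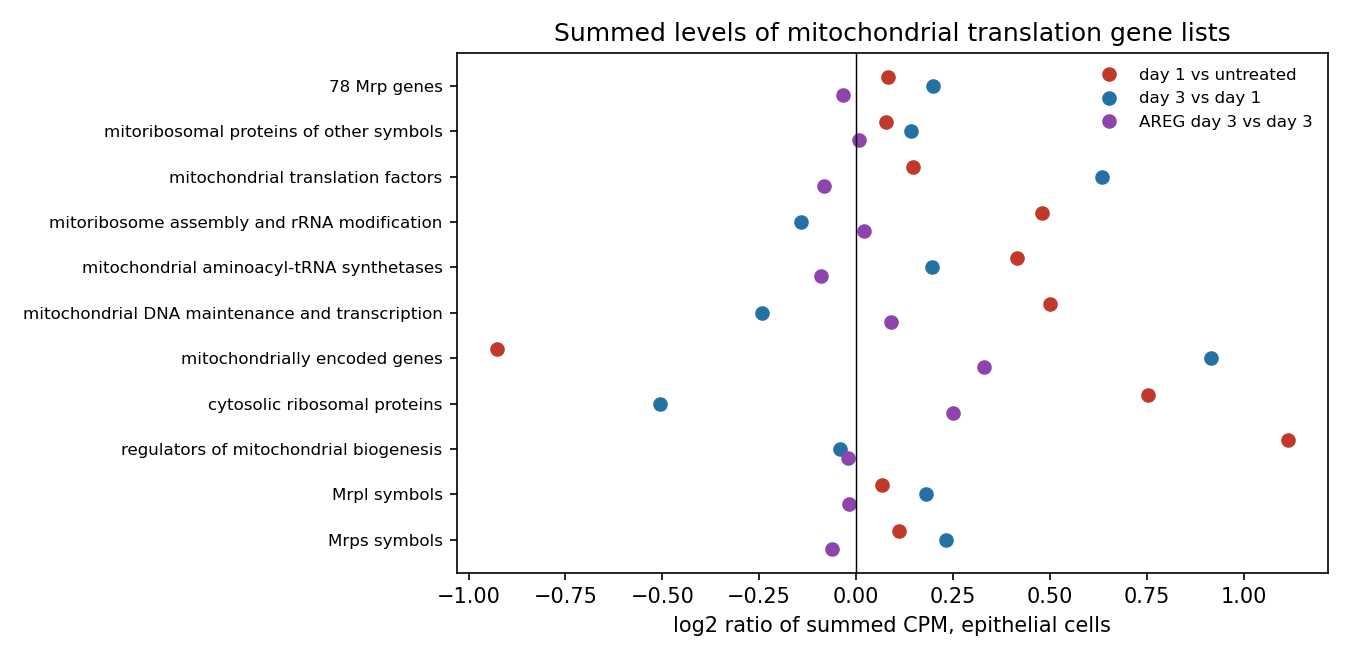
log2 ratio of summed CPM in epithelial cells for the members, for Mrpl and Mrps symbols apart, and for other lists of mitochondrial translation, in 3 comparisons. At day 1 against untreated the members sit at 0.082, between mitochondrially encoded genes at -0.93 and cytosolic ribosomal proteins at 0.75. These are sums over all epithelial cells, and within parietal-like and pit-like cells the mitochondrially encoded genes were lowest at day 3 instead.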

How the data were processed

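The deposited files hold raw UMI counts per gene and barcode from PIPseq T20 3' libraries, as the authors counted them. Per the submitters' processing notes, reads were placed on mm39 (GRCm39). Aligner and strand handling: not given in the sources used here. For 8 members an exon of another gene overlaps on the same strand, and for 28 on the other strand.

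Barcodes with at least 500 UMIs, 200 genes and at most 50% mitochondrial UMIs were kept as cells. Clustering used scanpy 1.11.5 and leidenalg 0.10.2 (2000 variable genes without the members, 40 components, resolution 1, 37 clusters). Classes were rebuilt from marker genes, and clusters failing the rule stayed unnamed. Clusters with under 250 CPM of Epcam, Krt8 and Krt18, a limit set after seeing the data, were left out as not epithelial (20, 183, 7 and 11 cells). No doublet caller was run.

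Counts were summed per library and class, for classes with at least 100 cells, and scaled to UMIs per 1000000 (CPM). Differences of single genes are log2 ratios of CPM + 1, and those of sums are log2 ratios of CPM. Shares and medians of all genes take in genes scarcer than any member and were not matched to the members in level. The added 1 shrinks the ratios of scarce genes more than those of members, and so also lowers their shares past a fold limit. A member was called at 1.5-fold or 2-fold. Intervals are exact Poisson for levels and conditional binomial for ratios, at 95%. The pipeline was tested on simulated data. Alternatives changed cell filters, scaling, pseudocount, clustering resolution and cell weighting. Named members were the 6 highest and 6 lowest of each epithelial comparison, members of defined role, the 2 highest and 2 lowest of each class comparison (50 UMIs or more), the 3 members departing most from the rest, and the extremes of each other list at day 1. The members and lists were chosen with earlier results of these data known.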

Additional observations from a re-analysis of the deposited data

Results flagged for a closer look

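Effects of the same comparison had opposite signs in pairs of cell classes, and the difference between the classes was not tested, since each group has 1 library. From untreated to day 1 the summed log2 ratio was 0.39 higher in pit-like than in parietal-like cells. The pit-like sum fell below 0 with at least 1000 UMIs per cell, with finer clusters and under the other scaling. Under that scaling the median member was at -0.43 in pit-like and -0.31 in parietal-like cells. From day 1 to day 3 the summed log2 ratio was 0.95 higher in parietal-like than in pit-like cells, and from untreated to day 3 it was 0.56 higher in parietal-like cells. Chief-like cells lay 1.94 above pit-like cells from untreated to day 3, with different clusters holding the chief-like cells of each library. The chief-like sum was far smaller with finer clusters and under the other scaling, where the median member went from 1.82 to 0.49. With AREG the ratio was 0.26 higher in pit-like than in parietal-like cells and 0.35 higher in pit-like than in proliferating-like cells. The largest pit-like cluster also differed between the untreated, day 3 and AREG libraries: within pit-like clusters the summed log2 ratio of AREG to day 3 ran from -0.064 to 0.020, and that of day 3 to untreated from -0.25 to 0.15. Chief-like cells were 0.22 above parietal-like and 0.31 above proliferating-like cells in the AREG comparison. There the chief-like ratio fell below 0 without the 1% of cells with the most UMIs.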

How the results depend on the processing

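Of 279 recomputed values for 34 results, 151 moved by less than the counting interval or kept within 1.5 times a count, 109 moved further and 19 changed direction. Over the parietal-like class each of the 4 comparisons between libraries kept its direction under every alternative listed here, although day 3 against untreated was -0.033 within 1 of its clusters, as did the lead of parietal-like over pit-like cells in all 4 libraries. Each value below is a log2 ratio of summed levels or a count of members. Shares of all genes were not counted with equal cell weights, with a pseudocount of 10 or without parietal-like cells. With at most 20% mitochondrial UMIs per cell, in all epithelial cells the summed level gave 0.10 (day 1 against untreated), 0.19 (day 3 against day 1), and parietal-like against pit-like was 1.29 (untreated), 0.89 (day 1), 1.85 (day 3), 1.59 (AREG). With the 20 most abundant genes, mitochondrially encoded and cytosolic ribosomal protein genes left out of the scaling, in all epithelial cells the summed level gave -0.26 (day 1 against untreated), 0.22 (day 3 against day 1), -0.022 (AREG against day 3), -0.041 (day 3 against untreated). The counts past 1.5-fold were 2 higher for day 1 against untreated, 13 lower for day 1 against untreated, 3 higher for day 3 against untreated, 1 lower for day 3 against untreated. In parietal-like cells the summed level gave -0.37 (day 1 against untreated), -0.073 (AREG against day 3), 0.24 (day 3 against untreated). In proliferating-like cells the summed level gave -0.27 (day 1 against untreated), 0.066 (day 3 against day 1), -0.12 (AREG against day 3), -0.20 (day 3 against untreated). In pit-like cells the summed level gave -0.41 (day 1 against untreated), -0.16 (day 3 against day 1), -0.57 (day 3 against untreated). In chief-like cells the summed level gave 0.035 (AREG against day 3), 0.28 (day 3 against untreated), and parietal-like against pit-like was 0.46 (untreated), 0.50 (day 1), 1.27 (day 3), 1.04 (AREG). Over all barcodes, in all epithelial cells the summed level gave 0.072 (day 1 against untreated), 0.18 (day 3 against day 1), -0.065 (AREG against day 3), 0.25 (day 3 against untreated). Without the 1% of cells with the most UMIs, in all epithelial cells the summed level gave 0.00042 (day 1 against untreated), 0.21 (day 3 against day 1), 0.21 (day 3 against untreated). In parietal-like cells the summed level gave 0.57 (day 3 against day 1), 0.27 (day 3 against untreated). In proliferating-like cells the summed level gave -0.23 (AREG against day 3). In pit-like cells the summed level gave 0.17 (AREG against day 3). In chief-like cells the summed level gave -0.035 (AREG against day 3), 1.80 (day 3 against untreated), and parietal-like against pit-like was 1.23 (untreated), 1.49 (AREG). With each cell weighted equally, in all epithelial cells the summed level gave -0.12 (day 1 against untreated), -0.024 (day 3 against day 1), 0.058 (AREG against day 3), -0.14 (day 3 against untreated). The counts past 1.5-fold were 7 lower for day 1 against untreated, 1 higher for day 3 against day 1, 4 lower for day 3 against day 1, 2 higher for day 3 against untreated, 5 lower for day 3 against untreated. In parietal-like cells the summed level gave 0.53 (day 3 against day 1), -0.085 (AREG against day 3), 0.24 (day 3 against untreated). In proliferating-like cells the summed level gave -0.019 (day 1 against untreated), -0.16 (AREG against day 3), -0.11 (day 3 against untreated). In pit-like cells the summed level gave 0.21 (day 1 against untreated), -0.47 (day 3 against day 1). In chief-like cells the summed level gave 0.068 (AREG against day 3), 1.32 (day 3 against untreated), and parietal-like against pit-like was 1.05 (untreated), 0.55 (day 1), 1.55 (day 3), 1.30 (AREG). With scaling to UMIs outside mitochondrially encoded genes, in all epithelial cells the summed level gave 0.042 (day 1 against untreated), 0.24 (day 3 against day 1), -0.012 (AREG against day 3). In parietal-like cells the summed level gave 0.55 (day 3 against day 1), -0.076 (AREG against day 3), 0.24 (day 3 against untreated). In pit-like cells the summed level gave 0.18 (AREG against day 3), -0.28 (day 3 against untreated). In chief-like cells the summed level gave 0.14 (AREG against day 3), and parietal-like against pit-like was 1.40 (untreated), 0.97 (day 1), 1.92 (day 3), 1.67 (AREG). Without parietal-like cells, in all epithelial cells the summed level gave 0.33 (day 1 against untreated), -0.54 (day 3 against day 1), 0.16 (AREG against day 3), -0.21 (day 3 against untreated). The counts past 1.5-fold were 17 higher for day 1 against untreated, 0 higher for day 3 against day 1, 30 lower for day 3 against day 1, 3 higher for day 3 against untreated, 7 lower for day 3 against untreated. With at least 1000 UMIs per cell, in all epithelial cells the summed level gave 0.21 (day 3 against day 1), 0.29 (day 3 against untreated). In parietal-like cells the summed level gave 0.28 (day 3 against untreated). In pit-like cells the summed level gave -0.036 (day 1 against untreated), -0.24 (day 3 against day 1), and parietal-like against pit-like was 1.23 (untreated), 0.95 (day 1). With a pseudocount of 10, the counts past 1.5-fold were 6 higher for day 3 against untreated. At clustering resolution 2, in proliferating-like cells the summed level gave 0.32 (day 3 against day 1), -0.41 (AREG against day 3), 0.34 (day 3 against untreated). In pit-like cells the summed level gave -0.15 (day 1 against untreated), -0.19 (day 3 against day 1), 0.046 (AREG against day 3), -0.33 (day 3 against untreated). In chief-like cells the summed level gave 0.14 (AREG against day 3), 0.048 (day 3 against untreated), and parietal-like against pit-like was 1.24 (untreated), 1.09 (day 1), 1.87 (day 3), 1.72 (AREG). At clustering resolution 0.5, in chief-like cells the summed level gave 0.39 (day 3 against untreated), and parietal-like against pit-like was 1.49 (AREG). Another 9 values were not run because fewer than 100 proliferating-like cells remained at day 1. The alternatives with each cell weighted equally, with scaling outside mitochondrially encoded genes and without parietal-like cells were chosen after seeing the data. No paired analysis was possible because each group has 1 library. Intervals cover counting error only, so neither the spread between mice nor that between libraries is known.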
